A study of Capra hircus with 8 samples.

Results

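The genes described here are SQSTM1, the 2 central genes of the NRF2 pathway (NFE2L2 and KEAP1) and 7 genes of antioxidant defence, CAT, SOD1, SOD2, PRDX1, TXNRD1, NQO1 and GCLM. They were taken by symbol from the table of messenger RNA levels in 8-cell goat (Capra hircus) embryos. All 10 symbols have exactly 1 row, among 22107 names in the table. SQSTM1 was chosen because its level differed widely between the embryo groups of these same libraries, so the differences below are a description and not a test of that choice. The question was whether the other genes moved with SQSTM1. They were chosen for their function, with earlier results of these data known.

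Of the libraries used, 2 come from fertilised embryos (in vitro fertilisation, IVF) and 2 from cloned embryos (somatic cell nuclear transfer, SCNT), for which an enucleated egg receives the nucleus of a donor body cell. All 4 are from the 8-cell stage. Embryos were lysed directly, and their polyadenylated RNA was made into full-length cDNA libraries with Smart-seq2, a method suited to a few cells. The sources used here do not state the donor cells, the source of the eggs, the age of the animals or the number of embryos in a library. The series also holds 4 samples of the 4-cell stage, whose table lists long non-coding RNAs and not these genes.

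SQSTM1, also called p62, is a receptor that binds ubiquitinated cargo and carries it into autophagosomes. It also binds KEAP1, the adaptor through which a CUL3 ubiquitin ligase keeps the transcription factor NRF2 (gene NFE2L2) at a low protein level. When KEAP1 is modified by oxidants or held by SQSTM1, NRF2 protein accumulates and activates genes of glutathione synthesis, thioredoxin reduction and quinone detoxification, and SQSTM1 itself. Much of this control acts on protein, which was not measured here. Embryos cultured in vitro are known to be sensitive to oxidants.

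The libraries rest on 27.5 to 30.3 M reads each (M, 1000000), as recovered from the steps between low values. Levels are in FPKM, fragments per kilobase of transcript per 1000000 fragments, and can be compared between genes. The log2 levels of the 2 SCNT libraries correlated at r = 0.90 across the tested genes, which are not independent replicates, and those of the IVF libraries at 0.96. SCNT replicate 2 had 11025 genes at 1 FPKM or more, against 8984 to 9883 in the other libraries. Differences are SCNT minus IVF on log2(FPKM + 1), which understates the ratio of genes at low level, with the standard error (SE) of a limma fit over the 10303 genes that reached 1 FPKM in 2 or more libraries. The median difference over all these genes was 0.39, so a gene with no change relative to the others would lie near that value. Median centring moved this median to −0.10 and quantile normalization to −0.01. Of the tested genes, 3.86% passed (adjusted p under 0.05) and 31.1% had an unadjusted p under 0.05, and the counts for lists of genes below stand against these shares. Of the 13 oocyte and cleavage embryo markers measured, all 13 were tested and none passed in limma, with 6 at an unadjusted p under 0.05. Their median difference was 0.87. Both SCNT values were above both IVF values for 10 of the 13, beside 46.9% of all tested genes, and below them for 2, beside 17.1%. Their summed level was 3933 and 4428 FPKM in the IVF pair and 4944 and 10424.5 FPKM in the SCNT pair. KPNA7 made up 1373 and 1596 FPKM of it in IVF and 1716 and 5415 FPKM in SCNT.

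SQSTM1 stood at 0.167 and 1.80 FPKM in IVF replicates 1 and 2 and at 21.6 and 36.8 FPKM in SCNT replicates 1 and 2. Both SCNT values lay far above both IVF values, and the lower SCNT value was 12.0 times the higher IVF value. The group means were 0.984 ± 1.16 and 29.2 ± 10.7 FPKM (SD, n = 2), a ratio of 29.7. On the log2 scale the difference was 4.02 ± 0.56 (SE), and 10 of the 10303 tested genes had a larger one. It was 3.65 without SCNT replicate 2 and 4.39 without SCNT replicate 1.

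Converted to whole reads, at the smallest numbers possible, the SQSTM1 values are 10 and 119 for IVF and 1337 and 2286 for SCNT. Exact Poisson 95% intervals, which cover counting error only, ran from 4.80 to 18.4 reads in IVF replicate 1 and from 98.6 to 142 reads in IVF replicate 2. The IVF libraries thus differed from each other by 10.8 times, beyond counting error, while the SCNT libraries differed by 1.70 times. Reads copied from 1 molecule by PCR cannot be told from separate molecules. In RefSeq, SQSTM1 overlaps its neighbour C7H5orf45, and no source used here says how the counting divided reads of overlapping genes.

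**Figure D1:**
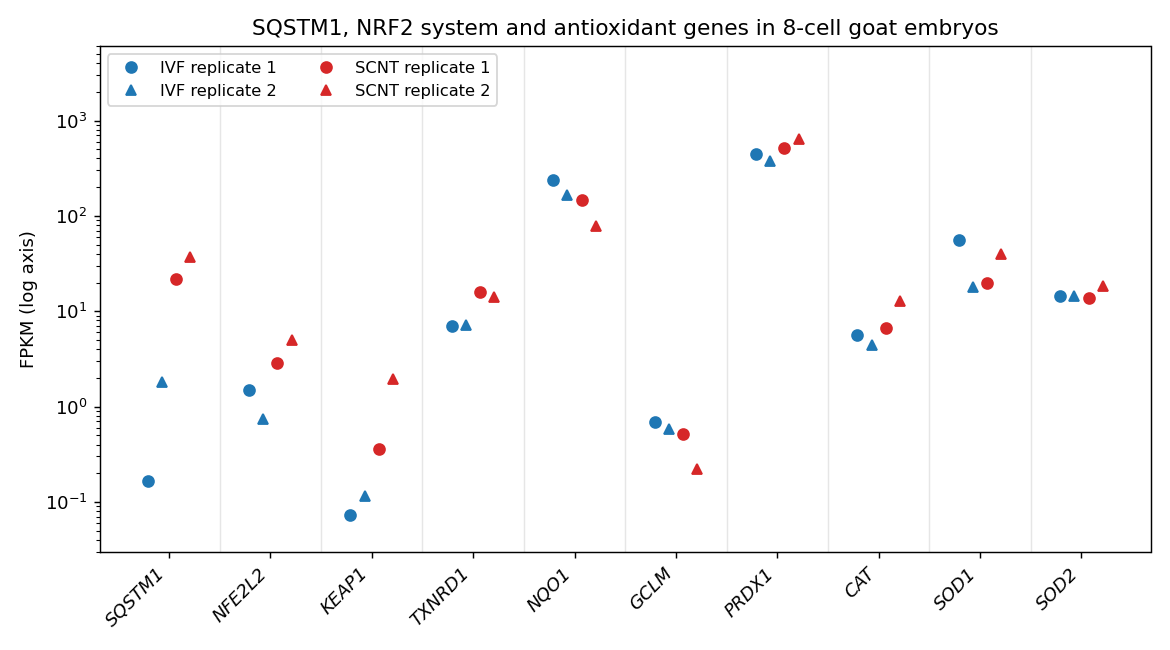
FPKM on a log axis of the 10 genes in the 4 libraries of 8-cell embryos, IVF in blue and SCNT in red, replicate 1 as circles and replicate 2 as triangles. SQSTM1 has the widest gap between groups, 21.6 and 36.8 FPKM against 0.167 and 1.80 FPKM, while NQO1 and GCLM have both SCNT values below both IVF values.

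NFE2L2, which encodes NRF2, was at 1.49 and 0.741 FPKM in IVF and at 2.84 and 4.99 FPKM in SCNT. Both SCNT values were above both IVF values, and the lower of them was 1.90 times the higher IVF value. The smallest read numbers behind these levels are 113, 62, 222 and 392. The difference was 1.20 ± 0.44 (SE), at the 80.0th percentile of the tested genes, and 0.81 above the median of all genes.

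KEAP1, which encodes the inhibitor of NRF2, was the least abundant of the 10 in both IVF libraries, at 0.0736 and 0.117 FPKM, or 8 and 14 reads. In SCNT it was at 0.357 and 1.93 FPKM, or 40 and 217 reads. The SCNT values were again both higher, but replicate 2 was 5.40 times replicate 1. KEAP1 reached 1 FPKM in SCNT replicate 2 alone and was therefore not tested. The ratio of NFE2L2 to KEAP1 within a library was 20.2 and 6.35 in IVF and 7.95 and 2.59 in SCNT, values that overlap between groups.

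The lists of related genes used from here on were drawn up from general knowledge of these systems, with earlier results of these data known. Of 18 other regulators of NRF2 (small MAF partners, BACH repressors, ligase subunits, related factors and sestrins), 11 were tested in limma. None passed in either direction, and 7 had an unadjusted p under 0.05, beside 31.1% of all tested genes. The list's median difference was −0.20 against 0.39 for all genes. The most abundant was NFE2L3, a factor of the same family as NRF2, at 122 and 126 FPKM in IVF and at 52.4 and 44.9 FPKM in SCNT (difference −1.34 ± 0.38 SE, limma adjusted p = 0.069). Its IVF values were both above its SCNT values, the opposite order to NFE2L2, and it did pass after median centring. RBX1, the RING subunit of the ligase, was at 62.7 and 52.3 against 43.2 and 57.1 FPKM, and the sestrin gene SESN3 at 60.3 and 56.2 against 37.3 and 9.48 FPKM. CUL3, the scaffold that joins RBX1 to KEAP1 and was picked out after its values were seen, was at 40.8 and 41.3 FPKM in IVF and at 24.3 and 15.0 FPKM in SCNT (limma adjusted p = 0.136). Both SCNT values were above both IVF values for 4 of the 11 tested regulators, beside 46.9% of all tested genes. They were below them for 5, beside 17.1%. Among the 4 was the small MAF gene MAFG, also picked out after its values were seen. It was at 6.17 and 8.97 FPKM in IVF and at 13.1 and 24.9 FPKM in SCNT.

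Of the 10 genes, 3 were classed here as NRF2 targets, a class that leaves out SQSTM1 itself and may leave out others. Among these 3, TXNRD1 encodes the cytosolic thioredoxin reductase. It was at 7.0 and 7.10 FPKM in IVF and at 16.0 and 14.2 FPKM in SCNT. The replicates lay close together in both groups, and the groups did not overlap. The difference was 0.998 ± 0.43 (SE), at the 73.3rd percentile of the tested genes. It was 1.08 without SCNT replicate 2 and 0.91 without SCNT replicate 1. It was 0.50 after median centring and 0.56 after quantile normalization, above the median of all genes under each. In RefSeq, TXNRD1 overlaps 3 other annotated genes.

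NQO1, the quinone reductase that is among the most used reporters of NRF2 activity, ran the other way. It was at 238 and 168 FPKM in IVF and at 147 and 77.8 FPKM in SCNT. Both SCNT values were below both IVF values, although IVF replicate 2 exceeded SCNT replicate 1 by only 1.14 times. The difference of −0.89 ± 0.45 (SE) placed it at the 7.90th percentile of the tested genes, 1.29 below their median. It was −0.44 without SCNT replicate 2 and −1.35 without SCNT replicate 1. NQO1 was abundant in every library, between the 94.9th and the 98.6th percentile of the genes above 0.

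The ratio of NQO1 to TXNRD1 within a library does not depend on the scaling between libraries. It was 34.0 and 23.6 for IVF and 9.17 and 5.49 for SCNT. These 2 targets thus differed unequally between the groups, with both SCNT ratios below both IVF ratios. This pair was picked out after its values were seen.

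GCLM, the modifier subunit of the enzyme that makes the first product of glutathione synthesis, was at 0.692 and 0.579 FPKM in IVF and at 0.515 and 0.220 FPKM in SCNT. The smallest read numbers are 91, 84, 70 and 30. The IVF values were both higher, but the 95% counting intervals of IVF replicate 2 (0.461 to 0.716 FPKM) and SCNT replicate 1 (0.402 to 0.651 FPKM) overlap. GCLM reached 1 FPKM in no library and was not tested. Its catalytic partner GCLC, picked out after its values were seen, was at 36.8 and 37.9 FPKM in IVF and at 94.3 and 91.1 FPKM in SCNT (limma adjusted p = 0.074). The subunits of this 1 enzyme were therefore ordered oppositely between the groups, with GCLC far more abundant in each library.

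Of 26 other NRF2 target genes, 24 were measured and 18 tested in limma, of which 1 rose, 0 fell and 17 did not pass. The median difference was 0.57 against 0.39 for all genes. The gene that rose was TKT, whose transketolase links sugar metabolism to the supply of NADPH, at 1.76 and 0.634 FPKM in IVF and at 63.7 and 66.4 FPKM in SCNT (limma adjusted p = 0.0144). TKT was already known to differ in these libraries when the list was drawn up, so it is no independent sign of the list's direction. It passed also without SCNT replicate 2. The most abundant targets were the ferritin light and heavy chain genes, which store iron. FTL was at 1767 and 2754 FPKM in IVF and at 1290 and 4055 FPKM in SCNT, and FTH1 at 535 and 594 against 210 and 880 FPKM. In both ferritin genes the 2 SCNT libraries enclosed the IVF values. The thioredoxin gene TXN was at 129 and 57.4 FPKM in IVF and at 60.3 and 51.9 FPKM in SCNT. HMOX1, the heme oxygenase gene and a common marker of oxidative stress, was listed at 0 in all 4 libraries; it was picked out after its values were seen.

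PRDX1, a peroxiredoxin that reduces hydrogen peroxide, was the most abundant of the 10 genes in every library. It was at 446 and 377 FPKM in IVF and at 510 and 636 FPKM in SCNT. The groups did not overlap, but the lower SCNT value was only 1.14 times the higher IVF value. The difference of 0.47 ± 0.38 (SE) was near the median of all genes (0.39) and came to −0.02 after median centring.

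CAT, the catalase that breaks down hydrogen peroxide, was at 5.59 and 4.39 FPKM in IVF and at 6.66 and 12.7 FPKM in SCNT. SCNT replicate 1 was 1.19 times the higher IVF value, and SCNT replicate 2 was 1.90 times SCNT replicate 1. The difference was 0.78 ± 0.49 (SE), 0.36 without SCNT replicate 2 and 1.20 without SCNT replicate 1.

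SOD1, the cytosolic superoxide dismutase, was at 55.2 and 18.02 FPKM in IVF and at 19.7 and 39.4 FPKM in SCNT. The groups overlapped, and the IVF libraries differed from each other by 3.06 times, more than the group means of 36.6 ± 26.3 and 29.6 ± 13.9 FPKM (SD, n = 2). The difference of −0.18 ± 0.60 (SE) turned to 0.61 without IVF replicate 1 and to 0.31 without SCNT replicate 1. SOD2, the mitochondrial superoxide dismutase, had the narrowest range over the 4 libraries, at 14.5 and 14.4 FPKM in IVF and at 13.8 and 18.2 FPKM in SCNT. The SCNT values enclosed the IVF values, and the difference was 0.13 ± 0.42 (SE), −0.36 after median centring and −0.25 after quantile normalization.

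Of the 10 genes, 8 were tested and 1 of them, SQSTM1, was past an adjusted p of 0.05, beside 3.86% of all tested genes (3.02% higher and 0.844% lower in SCNT). Since SQSTM1 was chosen from this contrast, nothing is read from that count. SQSTM1 was not past the threshold without SCNT replicate 2. Without SCNT replicate 1, where the spread comes from the IVF pair alone, SQSTM1, NFE2L2, CAT, SOD2, PRDX1 and TXNRD1 stayed higher in SCNT. In the same fit NQO1 stayed lower and SOD1 turned higher. Both SCNT libraries were above both IVF libraries for 5 of the 8 tested genes, beside 46.9% of all tested genes, and below them for 1, beside 17.1%. With the 2 untested genes the counts were 6 above, 2 below and 2 overlapping.

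The differences of the 7 tested genes other than SQSTM1 ranged from −0.89 to 1.20, with a median of 0.47 beside 0.39 for all genes. SQSTM1 at 4.02 lay well outside that range. NQO1 and GCLM had lower values in SCNT, and SOD1 and SOD2 overlapped between groups. The SEs of the 7 genes ran from 0.38 (PRDX1) to 0.60 (SOD1), and a difference had to be well beyond its SE to pass. NFE2L2 at 1.20 ± 0.44 (SE) did not pass, nor did the protease gene CTSB, described below, at 1.94 ± 0.54 (SE). Differences of such sizes could thus be missed with 2 libraries a group. Fewer cells or embryos with a transcript and less transcript per cell cannot be told apart in such libraries.

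**Figure D2:**
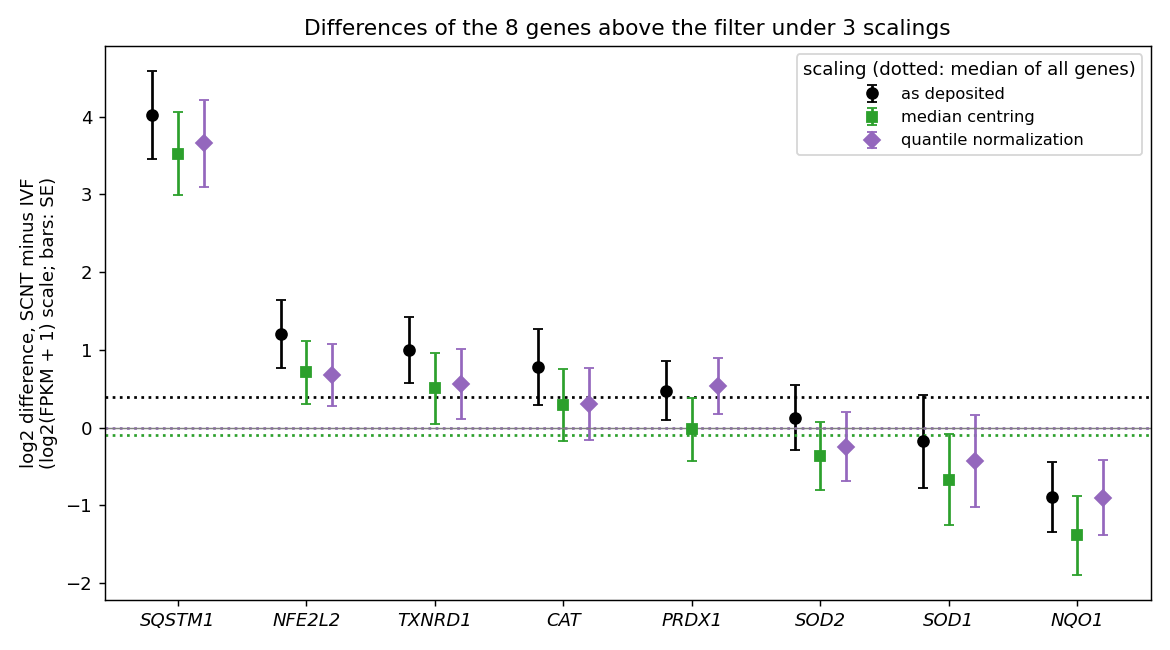
Log2 difference (SCNT minus IVF, log2(FPKM + 1) scale) with its SE for the 8 tested genes, with the values as deposited, after median centring and after quantile normalization; dotted lines give the median of all tested genes under each. SQSTM1 stays between 3.52 and 4.02, while PRDX1 (median centring) and SOD2 (both) change sign.

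The order of the 10 levels was similar in the groups except for SQSTM1. By group mean the order in IVF was PRDX1, NQO1, SOD1, SOD2, TXNRD1, CAT, NFE2L2, SQSTM1, GCLM and KEAP1. In SCNT it was PRDX1, NQO1, SOD1, SQSTM1, SOD2, TXNRD1, CAT, NFE2L2, KEAP1 and GCLM. SQSTM1 thus moved from rank 8 to rank 4, and no other gene moved by more than 1. In IVF, the replicates of SQSTM1 (0.984 ± 1.16 FPKM) overlapped those of its neighbours in the order, NFE2L2 (1.12 ± 0.530 FPKM) and GCLM (0.635 ± 0.0800 FPKM). In SCNT, the replicates overlapped between SOD1 (29.6 ± 13.9 FPKM) and SQSTM1 (29.2 ± 10.7 FPKM), between SOD2 (16.0 ± 3.12 FPKM) and TXNRD1 (15.1 ± 1.30 FPKM), and between KEAP1 (1.14 ± 1.11 FPKM) and GCLM (0.367 ± 0.209 FPKM). All other neighbours in either order had replicates that did not overlap. SCNT replicate 2 held the highest of the 4 values in 6 of the 10 genes, and over all tested genes it exceeded SCNT replicate 1 by a median of 0.25 on the log2 scale.

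The cargo receptors of selective autophagy are the genes closest in function to SQSTM1. Of 11 others, 10 were tested and none passed in limma, with 3 at an unadjusted p under 0.05. Their median difference was 0.61 against 0.39 for all genes. TAX1BP1, a receptor for ubiquitinated cargo, was the most abundant at 493 and 471 FPKM in IVF and at 385 and 152 FPKM in SCNT. The receptor gene OPTN was at 107 and 131 against 92.4 and 61.3 FPKM. Both had all IVF values above all SCNT values, the only 2 of the 10 tested to do so, beside 17.1% of all tested genes. The opposite order was found for 5 of the 10, beside 46.9% of all tested genes. Among these was NBR1, picked out after its values were seen, at 5.39 and 5.98 FPKM in IVF and at 15.1 and 14.5 FPKM in SCNT. BNIP3, a receptor for mitochondria, was at 53.5 and 99.2 FPKM in IVF and at 187 and 319 FPKM in SCNT (difference 1.73 ± 0.47 SE, adjusted p = 0.065).

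Within a library, SQSTM1 made up 0.0212% and 0.213% of the summed level of these 12 receptor genes in IVF and 2.57% and 4.64% in SCNT. The other 11 together were at 786 and 844 FPKM in IVF and at 820 and 756 FPKM in SCNT. Their sum thus overlapped between groups while SQSTM1 did not. It was led by TAX1BP1, at 493 and 471 FPKM in IVF and at 385 and 152 FPKM in SCNT. The sum therefore does not show how the less abundant receptors were ordered between the groups. SQSTM1 ranked 12 and 10 of 12 for IVF and 5 and 6 for SCNT.

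**Figure D3:**
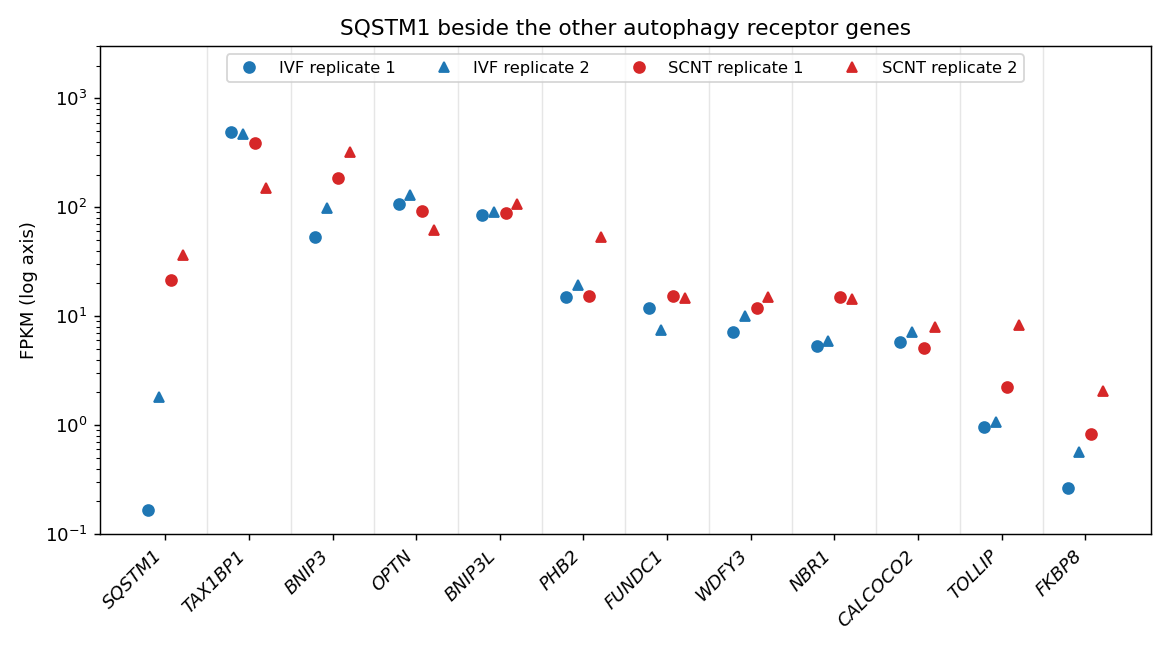
FPKM on a log axis of SQSTM1 and 11 other autophagy receptor genes, ordered by mean level, in the 4 libraries (IVF in blue, SCNT in red, circles for replicate 1 and triangles for replicate 2). SQSTM1 is the lowest of the 12 in IVF replicate 1 and ranks 5 and 6 in the SCNT libraries. TAX1BP1 and OPTN are lower in both SCNT libraries, while 5 of the other receptors tested are higher in both.

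Of 32 genes of the core autophagy machinery, 31 were measured and 22 tested, of which 1 rose, 0 fell and 21 did not pass. The median difference was 0.42, close to the 0.39 of all genes. ATG101, a subunit of the kinase complex that starts autophagosomes, rose from 2.37 and 3.39 FPKM in IVF to 14.5 and 47.3 FPKM in SCNT (limma adjusted p = 0.044). Its call was lost with a filter at 5 FPKM, after quantile normalization and without SCNT replicate 2 or IVF replicate 1. ATG5 was at 110 and 117 against 90.3 and 102 FPKM, ATG12 at 76.96 and 78.0 against 93.6 and 50.2 FPKM, and MAP1LC3B, which encodes the membrane protein LC3B that SQSTM1 binds, at 127 and 56.5 against 72.4 and 46.1 FPKM. None of these 3 passed.

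Of 23 lysosomal genes and their TFEB-family regulators, 19 were tested, 2 rose, 0 fell and 17 did not pass, beside 3.86% of all tested genes that passed. An unadjusted p under 0.05 was found for 11 of the 19, beside 31.1% of all tested genes. This list had the highest median of the 10 pathway lists, 1.07. PSAP, the precursor of the saposins that help degrade sphingolipids, rose from 2.99 and 2.92 FPKM in IVF to 14.5 and 27.8 FPKM in SCNT (limma adjusted p = 0.043). CTSA, a lysosomal carboxypeptidase gene, rose from 0.479 and 0.209 FPKM to 2.88 and 6.14 FPKM (adjusted p = 0.048). Both calls were lost after median centring, after quantile normalization and without SCNT replicate 2 or either IVF replicate, and that of CTSA also without the variance trend. The protease gene CTSB was at 26.4 and 28.5 FPKM in IVF and at 62.0 and 187 FPKM in SCNT (adjusted p = 0.067), the proton pump gene ATP6V1B2 at 136 and 184 against 249 and 442 FPKM, and the cholesterol carrier gene NPC2 at 614 and 391 against 249 and 192 FPKM.

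SQSTM1 also acts as a scaffold in signalling to NF-κB and mTORC1. Of 15 such partner genes, 14 were tested and none passed in limma, with 3 at an unadjusted p under 0.05, and the median difference was 0.82. The deubiquitinase gene USP8 was at 228 and 276 FPKM in IVF and at 166 and 125 FPKM in SCNT. Of the Rag GTPase genes, which bring mTORC1 to the lysosome, RRAGC and RRAGA were ordered oppositely: RRAGC was at 186 and 235 against 169 and 95.3 FPKM, and RRAGA at 31.9 and 35.3 against 65.8 and 126 FPKM. RRAGB, picked out after its values were seen, had the order of RRAGA, at 0.814 and 0.783 against 2.43 and 1.47 FPKM.

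Of 29 glutathione enzymes, 25 were measured and 19 tested, of which 1 rose, 0 fell and 18 did not pass, with a median difference of 0.25. CHAC1, which degrades glutathione, rose from 2.34 and 2.62 FPKM in IVF to 27.3 and 43.4 FPKM in SCNT (limma adjusted p = 0.022), and did not pass without SCNT replicate 2. Like TKT, it was known to differ in these libraries when the list was drawn up. GPX4, which reduces lipid peroxides, was at 23.0 and 32.5 against 18.6 and 68.7 FPKM, GLO1 at 281 and 229 against 379 and 214 FPKM, and the glutathione transferase gene GSTM3 at 90.0 and 61.7 against 31.2 and 138 FPKM. In each of these 3 genes the groups overlapped.

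Of 16 other genes of the thioredoxin, peroxiredoxin and methionine sulfoxide systems, 14 were tested and none passed, with 3 at an unadjusted p under 0.05 and a median difference of 0.77. PRDX6, a peroxiredoxin that also acts on phospholipids, was at 2215 and 2312 FPKM in IVF and at 1784 and 2019 FPKM in SCNT, above PRDX1 in every library. The mitochondrial peroxiredoxin gene PRDX3 was at 41.9 and 43.1 against 83.7 and 63.6 FPKM, and PRDX2 at 28.4 and 29.2 against 31.2 and 79.3 FPKM. Of 10 further genes of superoxide and peroxide handling, 7 were measured, 5 were tested and none passed (1 at an unadjusted p under 0.05, median 0.76). Among them APEX1 was at 133 and 50.6 against 109 and 247 FPKM, PARK7 at 15.3 and 17.3 against 22.1 and 36.0 FPKM, and OXR1 at 18.1 and 14.9 against 11.5 and 5.85 FPKM. Of 16 genes of NADPH oxidases and other oxidant sources, 13 were measured (CYBA, CYBB and NOXO1 are not analysed here), 4 were tested and none passed (1 at an unadjusted p under 0.05, median 0.47). PPIF, a regulator of the mitochondrial permeability pore, was at 22.8 and 29.7 against 61.9 and 154 FPKM (adjusted p = 0.065). The superoxide-producing oxidase genes NOX5 and NOX4 were ordered oppositely, NOX5 at 5.93 and 4.49 against 6.70 and 17.7 FPKM and NOX4 at 4.01 and 4.37 against 2.67 and 1.10 FPKM.

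**Figure D4:**
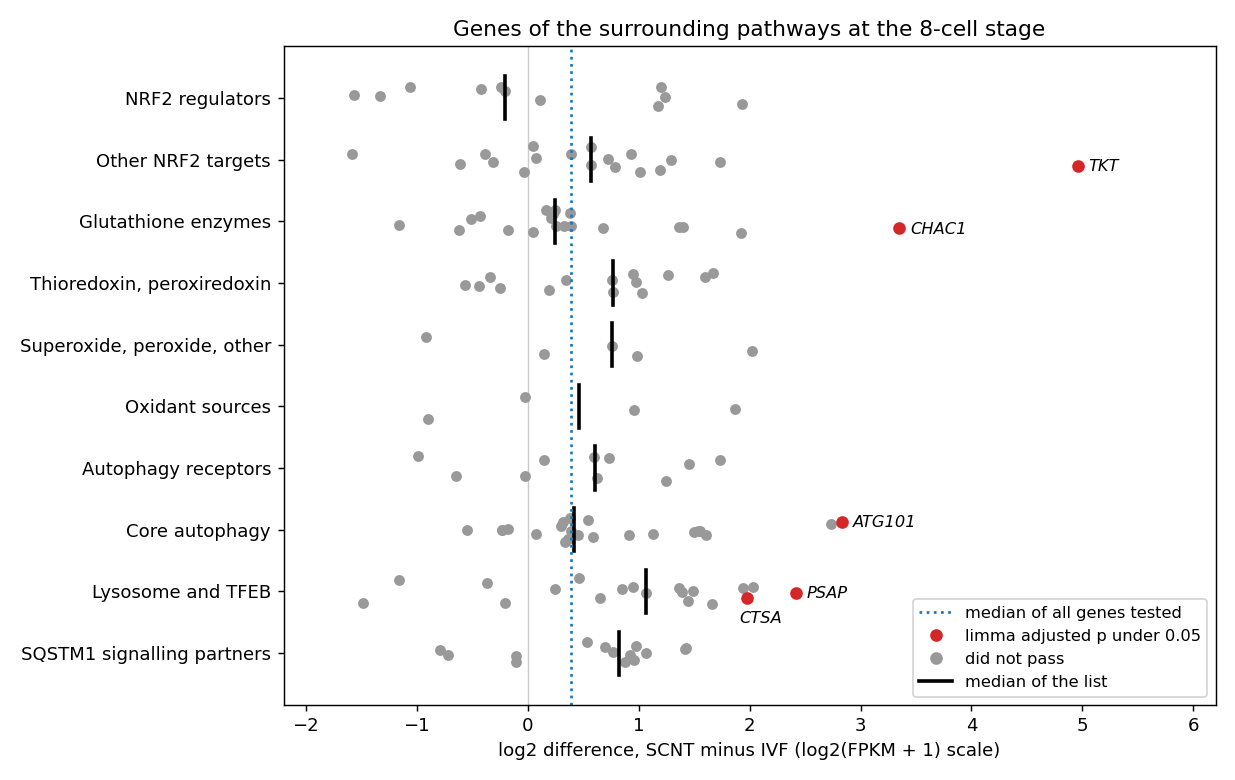
Log2 difference (SCNT minus IVF, log2(FPKM + 1) scale) of each tested gene in 10 lists around the NRF2 and autophagy systems, with list medians as black bars and the median of all tested genes (0.39) as a dotted line. The 5 genes that passed in limma, in red, are TKT, CHAC1, ATG101, CTSA and PSAP.

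Over the 10 lists together, 136 genes were tested and 5 passed, all higher in SCNT, which is 3.68% beside 3.86% of all tested genes. Their median difference was 0.57. After quantile normalization TKT and CHAC1 were the 2 that passed, and without SCNT replicate 2 TKT alone passed.

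Among the 5 protein-coding genes whose profiles over the 4 libraries were nearest to that of SQSTM1, of 8829 compared, were SEBOX, EIF5A and SLC34A2. Likeness was the distance between log2(FPKM + 1) profiles, each centred on its own mean, and it takes in the same contrast that chose SQSTM1. SEBOX, an oocyte homeobox gene, was nearest at a distance of 0.142, with 0.663 and 3.37 FPKM in IVF and at 31.9 and 50.5 FPKM in SCNT. SEBOX thus shared with SQSTM1 both the gap between groups and the gap between the IVF libraries. EIF5A, a translation factor gene, lay at a distance of 0.741, and SLC34A2, a phosphate transporter gene, at 0.961. The other 7 tested genes of the 10 lay farther away: NFE2L2 ranked 2223, TXNRD1 2645, CAT 3362, PRDX1 4329, SOD2 5306, SOD1 7330 and NQO1 8294. This is the order of their differences given above, so the ranks restate that contrast and are no further sign of whether these genes moved with SQSTM1.

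**Figure D5:**
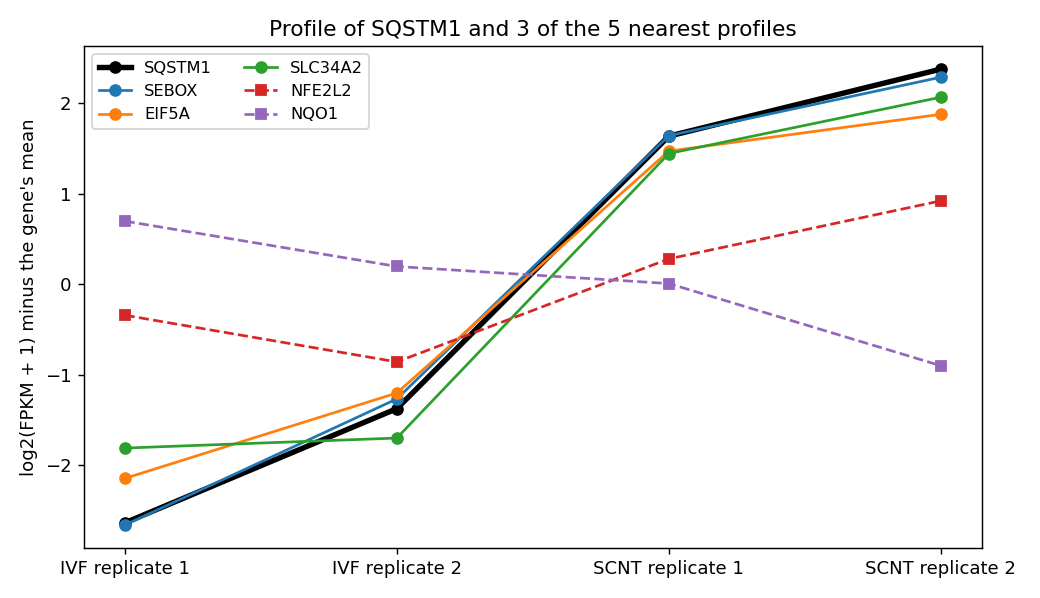
Log2(FPKM + 1) minus each gene's mean in the 4 libraries for SQSTM1, 3 of its 5 nearest profiles, and NFE2L2 and NQO1 as dashed lines; lines join the values of a gene and carry no order. SEBOX, at a distance of 0.142, nearly covers SQSTM1, while NQO1 runs the other way.

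Along the chromosome, in the order of a RefSeq annotation, the gene just after SQSTM1 and overlapping it, C7H5orf45, was at 7.01 and 12.0 FPKM in IVF and at 23.4 and 46.7 FPKM in SCNT (difference 1.74 ± 0.50 SE, limma adjusted p = 0.071). Its groups did not overlap, with a ratio of means of 3.68 against 29.7 for SQSTM1. The next gene, TBC1D9B, was at 0.287 and 0.803 against 1.40 and 4.86 FPKM (adjusted p = 0.116), and RNF130 at 7.08 and 4.29 against 3.13 and 4.19 FPKM. On the other side, MGAT4B was at 2.13 and 5.42 against 4.43 and 10.2 FPKM, LOC102172703 was below 1 FPKM in every library and LOC102172529 was listed at 0. None of the 4 neighbours tested (C7H5orf45, TBC1D9B, RNF130 and MGAT4B) passed. Reads of SQSTM1 and C7H5orf45 in their shared stretch cannot be told apart without strand.

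Markers of other cell types were measured because SQSTM1 and NQO1 are also expressed in many somatic cells. Of 17 fibroblast markers, 10 were tested and, beside 3.02% of all tested genes, 2 rose, TIMP1 (0.156 and 0.637 against 11.2 and 12.9 FPKM, limma adjusted p = 0.022) and TAGLN (0.659 and 0.389 against 4.85 and 4.94 FPKM, 0.042). The whole fibroblast list summed to 135 and 125 FPKM for IVF, against 102 and 108 FPKM for SCNT. DCN led this sum, at 94.3 and 85.5 against 33.9 and 39.5 FPKM. The sum therefore does not show how the less abundant fibroblast markers were ordered. Both SCNT values were above both IVF values for 5 of the 10 tested, beside 46.9% of all tested genes, and below them for 2, beside 17.1%. The median difference of the 10 was 0.86 against 0.39 for all genes, with 5 at an unadjusted p under 0.05 in limma. No fibroblast marker was listed at 0 in all libraries. COL5A1, COL6A1, COL6A2 and S100A4 were at 0 in both IVF libraries and below 1 FPKM in SCNT, while none was at 0 in both SCNT libraries. Of 13 cumulus and granulosa markers, 10 were measured, 4 were tested and none passed (0 at an unadjusted p under 0.05); FSHR, INHA and AMH were listed at 0 in all 4 libraries, and the summed level was 84.3 and 90.0 FPKM in IVF and at 60.8 and 93.8 FPKM in SCNT. Of 6 epithelial markers, 5 were measured, 4 were tested and 1, KRT8, rose (2.10 and 0.0367 against 8.64 and 25.0 FPKM, 0.046), with summed levels of 9.33 and 6.89 against 23.2 and 38.4 FPKM. Of 7 blood markers, the globin genes HBB and HBA1 are not analysed here; none of the other 5 was tested, and their summed level was at most 1.56 FPKM. TAGLN, TIMP1 and KRT8 did not pass without SCNT replicate 2, nor did TIMP1 without IVF replicate 1, KRT8 without IVF replicate 2, or TAGLN without either of these. The call of TAGLN was also lost after median centring and quantile normalization, and that of KRT8 after quantile normalization, with a pseudocount of 0.1 FPKM, with the filter at 5 FPKM and without the variance trend. Their part in the difference of SQSTM1 was not tested.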

How the data were processed

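Messenger RNA levels in 4 libraries of 8-cell goat embryos (2 IVF, 2 SCNT) were analysed. Values are FPKM as deposited by the authors; per the submitters' processing notes fastp, HISAT2 2.2.1 and HTSeq were used, with no role given. The sources used here do not state the build, annotation, strand handling or treatment of multiply mapping reads. No coordinates are therefore printed, and close copies of genes such as FTH1 or PRDX1 may share reads. Gene order and names came from RefSeq (assembly ARS1.2), in which 22065 of 22107 names were found; 281 rows with repeated names and 26 with names turned into dates were not named.

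The 10303 genes that reached 1 FPKM in 2 or more libraries were fitted with limma 3.58.1 in R 4.3.3 on log2(FPKM + 1), lmFit and eBayes with trend, two-sided, Benjamini-Hochberg adjustment over all of them, threshold 0.05, with the script tested on simulated data. Groups and replicate numbers came from sample titles. The labels do not say that replicates are separate pools of embryos, so p-values measure only the spread between these libraries. Totals of reads came from entries under 1100 bases whose lowest values equal 1 read. With them, all 234 list genes above 0, members included, gave whole reads within 0.02 in the 4 libraries; the numbers are the smallest that do, and true numbers may be multiples.

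Members and lists were chosen with earlier results of these data known. Named genes were all members, each list gene that passed, the 3 most abundant tested genes of a list (2 for markers), the 5 profiles nearest to a member that passed (2 are not reported here), and 3 neighbours on each side of SQSTM1; exceptions are marked. Alternatives covered the pseudocount, filter, scaling, variance trend, replicate block and leaving out each library. Sequences were not used here.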

Additional observations from a re-analysis of the deposited data

How the results depend on the processing

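The count of all genes past the threshold was 398 (311 higher, 87 lower in SCNT). It was 0 without a filter on low values (3661 at an unadjusted p under 0.05 in limma), 133 with a filter at 5 FPKM, 1327 (1133 higher, 194 lower) after rescaling to a total of 1000000, and between 46 (without SCNT replicate 2) and 3834 (without SCNT replicate 1) when a library was left out. It was 173 without IVF replicate 1 and 257 without IVF replicate 2. The split turned to 158 higher and 238 lower after median centring and to 121 and 150 after quantile normalization.

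The SQSTM1 difference of 4.02 was 5.31 with a pseudocount of 0.1 FPKM and between 3.38 and 4.65 when a library was left out, and it was above 0 under all 13 alternatives. The count of the 10 genes past the threshold was 1; it was 0 without a filter (2 at an unadjusted p under 0.05) and between 0 and 3 when a library was left out. Over the 10 pathway lists the count of 5 became 8 with a pseudocount of 0.5 FPKM, 0 without a filter (45 at an unadjusted p under 0.05), 3 with the filter at 5 FPKM, 2 after quantile normalization, 20 after rescaling, and between 1 (without SCNT replicate 2) and 61 (without SCNT replicate 1) when a library was left out. It was 2 without IVF replicate 1 and 3 without IVF replicate 2. Another filter changes the number of genes tested; for the other changes the cause was not tested. Of 672 values for 52 single genes other than SQSTM1, 37 put a gene that had passed short of the threshold, 26 put a gene outside the 10 past it, and 38 others moved by more than the SD between replicates; no gene that passed changed sign.

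With a replicate block in the fit, 1924 genes passed, 30 of them in the pathway lists, and 1 of the 10 genes described here, SQSTM1, was past the threshold. The numbers are not stated to pair libraries: the replicate differences of the IVF and SCNT pairs correlated at 0.12 across genes. Depth limits KEAP1, SQSTM1 in IVF and GCLM, with as few as 8, 10 and 30 reads in a library.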
